A study of Mus musculus with 8 samples.

Results

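Coagulation turns soluble fibrinogen into a fibrin clot, and fibrinolysis dissolves it again. The genes described here are 31 listed genes of that system, 30 of which were found among the 23006 genes of the count table through their Ensembl identifiers. They were taken from a list of symbols and not by a cutoff on measured values, but the list was chosen with earlier results of these data known. They fall into 3 fibrinogen chains, 14 procoagulant and contact factors, 9 inhibitors and anticoagulants, and 5 genes of fibrinolysis. The listed gene without a matching row, Klkb1, is not analysed here.

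RNA was sequenced from livers of wild-type mice in 8 libraries, 2 per group, in a study of whether SLIT2 limits liver injury by acetaminophen (APAP). Control mice were given PBS only, and the SLIT2 group received 2 µg of SLIT2, a secreted ligand of ROBO receptors, per mouse intraperitoneally for 3 days. The APAP group received PBS and 400 mg/kg APAP, and the SLIT2+APAP group received both agents. Livers were collected 24 h after APAP. The labels name neither strain nor age, nor do they say that the 2 libraries in a group are from different animals. The p-values therefore reflect only how far these samples spread, which may be technical variation. The APAP libraries are numbered 3 and 4, and the others 1 and 2.

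Hepatocytes make and secrete most of these proteins. Thrombin, cut from prothrombin at the end of a cascade of proteases and cofactors, trims fibrinogen so that it polymerizes. Serpins, the protein C system and tissue factor pathway inhibitor limit the cascade, and plasmin, cut from plasminogen by tissue-type or urokinase-type activators, digests fibrin. Fibrinogen is also an acute phase protein, whose synthesis the liver raises in inflammation, and several clotting factors need vitamin K to bind membranes.

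Total counts ranged from 60.8 to 100.5 M per library (M, 1000000 counts). Mitochondrially encoded genes took 60.2% and 69% of the counts in the SLIT2 libraries and between 13.4% and 30.3% in the others, which left 25.1 and 18.9 M other counts with SLIT2 against 55.2 M or more elsewhere. All 7 hepatocyte markers found were present in each library. Their summed abundance was 13424.4 and 7515 CPM (counts per 1000000 counts after TMM scaling, a correction of library size) in the SLIT2 libraries and 47495.5 to 96579.3 CPM in the other 6. In the SLIT2 libraries the 6 neutrophil markers summed to 31.5 and 28.3 CPM, against 3.04 to 18.5 CPM elsewhere, although Cxcr2 alone held 26.8 and 26.3 CPM, Elane was at 0 in both, and Ly6g was at 0 in 6 of the 8 libraries. Skeletal muscle markers stood apart in control 1, at 627.1 CPM against 68.6 CPM in control 2 and at most 1.1 CPM elsewhere. The part of these shifts in the results below was not tested. In bulk liver RNA, fewer cells of a type and less RNA per cell cannot be told apart. With 2 libraries against 2, the smallest p of an exact two-sided permutation test is 0.333, so calls come from edgeR's quasi-likelihood model fitted to all 16876 genes that passed the count filter, at a Benjamini-Hochberg adjusted p under 0.05. All 30 genes passed that filter.

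The fibrinogen chains are encoded side by side within 42140 bases at chr3:83007724-83049863 (GRCm38). Fgg (gamma chain, ENSMUSG00000033860) and Fga (alpha chain, ENSMUSG00000028001) lie on the forward strand and Fgb (beta chain, ENSMUSG00000033831) on the reverse strand. Their upstream sequences are shown because these chains had the largest changes among the clotting genes called in SLIT2+APAP against APAP. They come from RefSeq (GRCm38.p6), which gave promoters for 23 of the 30 genes, and read 5′ to 3′ toward each gene at chr3:83007474-83007723 (Fgg, forward strand), chr3:83025903-83026075 (Fga, forward strand, ending where the annotated gene begins) and chr3:83049864-83050113 (Fgb, reverse strand). Capitals mark matches to motifs searched on both strands.
Fgg: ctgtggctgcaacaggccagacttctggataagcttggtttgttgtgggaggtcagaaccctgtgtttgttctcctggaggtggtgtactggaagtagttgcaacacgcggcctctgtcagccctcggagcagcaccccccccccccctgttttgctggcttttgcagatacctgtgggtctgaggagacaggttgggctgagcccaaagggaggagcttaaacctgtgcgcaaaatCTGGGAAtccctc
Fga: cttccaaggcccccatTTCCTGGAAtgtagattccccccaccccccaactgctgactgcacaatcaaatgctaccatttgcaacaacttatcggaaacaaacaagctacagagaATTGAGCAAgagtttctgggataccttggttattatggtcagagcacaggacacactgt
Fgb: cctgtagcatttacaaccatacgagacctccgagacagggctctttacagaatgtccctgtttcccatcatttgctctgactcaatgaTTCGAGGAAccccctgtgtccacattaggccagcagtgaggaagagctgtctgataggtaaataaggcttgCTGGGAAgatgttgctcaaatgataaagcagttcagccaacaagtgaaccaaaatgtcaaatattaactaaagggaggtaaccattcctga

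The search window was the 250 bases before each RefSeq start. For Fga this start lies inside the annotated gene, past the end of the sequence shown, and its positions count from that start. Fga held TTCNNNGAA, a STAT-type element, 234 to 226 bases before its start, and TTGCNNAAT, a C/EBP-type element read on the reverse strand, 136 to 128 bases before it. Fgb held TTCNNNGAA at 162 to 154 bases and CTGGGAA, another acute phase element, at 91 to 85 bases. Fgg held only CTGGGAA, at 13 to 7 bases. In 32851 mouse promoters TTCNNNGAA occurred in 7.02%, CTGGGAA in 9.1% and TTGCNNAAT in 2.11%. Among the 24 promoters of coagulation genes, TTCNNNGAA was found for Fga, Fgb, Pros1 and F9, CTGGGAA for Tfpi, Fgg, Fgb and F9, and TTGCNNAAT for Fga and F9. The F9 match to CTGGGAA lies within its match to TTCNNNGAA. The HNF1-type motif (0.00913% of promoters) and TTGCGCAA, a further C/EBP-type motif (0.164%), were found in 0 of the 24. A match is only a description of letters.

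In control liver the fibrinogen chains were among the most abundant of these transcripts on a per-length scale. Mean abundance was 1267.5 CPM per kb of exon for Fgg, 993.3 for Fgb and 492.2 for Fga. Apoh, a phospholipid-binding plasma protein, reached 955.0 CPM per kb, Plg, plasminogen, 607.1, and Kng1, the kininogen from which bradykinin is cut, 365.8. At the other end were genes that other cells of the liver are known to express more than hepatocytes. Vwf, the platelet-tethering protein of endothelium, was at 0.103 CPM per kb, Plat, tissue-type plasminogen activator, at 0.049, Plau, urokinase, at 0.257, and F8, the cofactor of factor IX, at 0.329. Vwf, Plat, Plau, F8, Tfpi (tissue factor pathway inhibitor) and F3 (tissue factor, which starts the cascade) stayed under 4 CPM in all 8 libraries. Thbd, thrombomodulin, which turns thrombin toward activating protein C, exceeded that only in APAP 3. The 30 genes together took 2.08% and 2.07% of the counts outside the mitochondrially encoded genes in control, 1.08% and 0.992% with SLIT2, 3.8% and 3.56% with APAP and 2.41% and 2.08% with both.

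The alpha chain Fga measured 1722.5 and 1240.6 CPM in control 1 and 2, 145.7 and 89.2 CPM in SLIT2 1 and 2, 5892.8 and 5281.2 CPM in APAP 3 and 4, and 785.6 and 471.6 CPM in SLIT2+APAP 1 and 2. Fgb measured 4199.9 and 3369.2 CPM in control, 460.5 and 396.5 CPM with SLIT2, 9508.7 and 6642.2 CPM with APAP, and 3444.7 and 2228.1 CPM with both. Fgg measured 3244.1 and 2061.5 CPM in control, 305.9 and 176.7 CPM with SLIT2, 7263.7 and 4519.7 CPM with APAP, and 1228.3 and 804.7 CPM with both. For each chain both APAP libraries were the highest of the 8 and both SLIT2 libraries the lowest. The SLIT2+APAP libraries lay below control without overlap for Fga and Fgg, while for Fgb SLIT2+APAP 1 exceeded control 2. The chains together took 0.861% ± 0.139 (SD, n = 2) of the counts outside mitochondrially encoded genes in control, 0.22% ± 0.0368 with SLIT2, 2.24% ± 0.375 with APAP and 0.688% ± 0.144 with both.

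**Figure D1:**
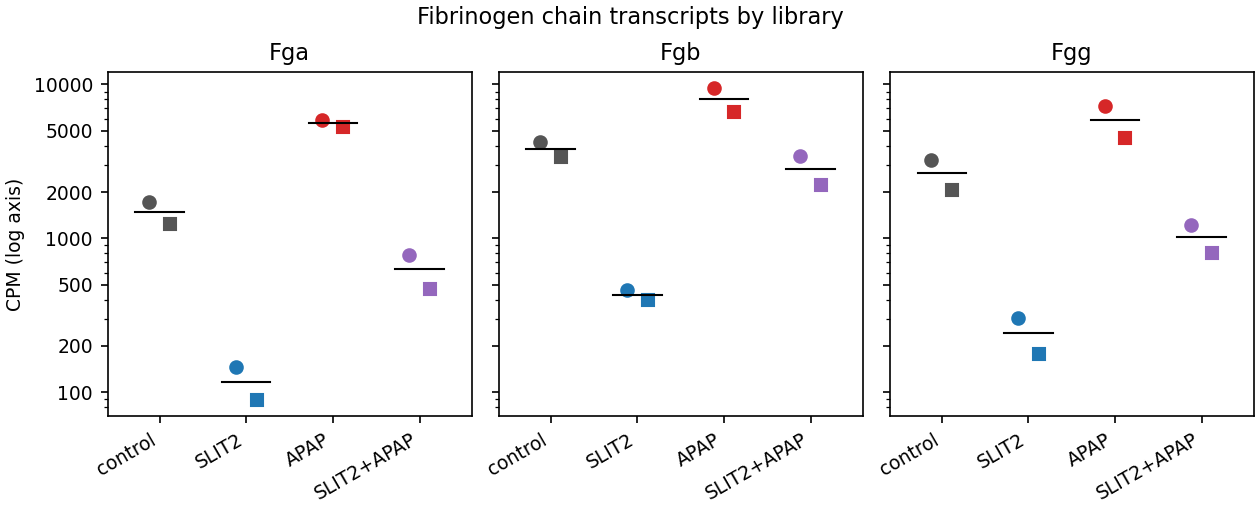
CPM of Fga, Fgb and Fgg (log axis) in each library by group. Circles are the lower-numbered library of a group, squares the higher-numbered one, and lines are means. For all 3 chains the APAP libraries stand highest and the SLIT2 libraries lowest.

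The comparison of APAP with control addresses the toxin by itself. No clotting gene passed the test with edgeR. Fga, Kng2 and Fgg had the highest log2 fold changes. Of the 30 genes, 0 were called, against 0.788% of all genes tested. An unadjusted edgeR p under 0.05 was found for 5 of the 30, and for 4148 of all 16876 genes. DESeq2 called 3, all higher (Fga, Fgb and Kng2), where it called 11.6% of all genes. The log2 fold change was 1.91 ± 0.38 (SE) for Fga (3.77-fold, edgeR adjusted p = 0.06267), 1.09 ± 0.34 for Fgb (edgeR adjusted p = 0.1137) and 1.15 ± 0.43 for Fgg (edgeR adjusted p = 0.1534). Kng2, a mouse paralog of Kng1, measured 117.9 and 138.6 CPM in control and 292.0 and 303.0 CPM with APAP, a log2 fold change of 1.21 ± 0.27 (edgeR adjusted p = 0.06672). Reads of Kng1 and Kng2 may be split between them, since no source used here says how reads with several matches were handled.

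The other procoagulant factors had log2 fold changes between -0.50 and 0.68. F2, prothrombin, averaged 967.9 ± 36.9 CPM in control and 1228.5 ± 54.5 CPM with APAP (SD, n = 2). F9, whose protein activates factor X, averaged 160.0 ± 0.747 and 112.8 ± 3.73 CPM, without overlap and with a log2 fold change of -0.50 ± 0.25 (edgeR adjusted p = 0.2569). Both libraries with APAP lay above both of control for 12 of the 30 genes and below for 3, where 26.9% and 26.1% of all genes did so. The median log2 fold change was 0.23 over the 30 genes and 0.05 over all genes. Inhibitors had a median of 0.08, with antithrombin (Serpinc1) at 1471.7 ± 101.6 CPM in control and 1467.6 ± 94.5 CPM with APAP, and fibrinolysis genes one of 0.

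The APAP libraries differed from each other more than those of any other group, with a median absolute log2 difference of 0.48 over the 30 genes against 0.14 in control. Thbd was at 6.71 CPM in APAP 3 and 0.981 CPM in APAP 4, and F13b, the carrier subunit of the clot-stabilizing transglutaminase, at 33.1 and 81.2 CPM. The 11 endothelial markers summed to 161.7 CPM in APAP 3 and 65.6 CPM in APAP 4, against 69.2 to 106.1 CPM in the other libraries, and the part of this in the Thbd values was not tested. Without APAP 4, edgeR called 4 of the 30 genes, Fga, Fgb, Kng2 and Thbd, and 30% of all genes.

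**Figure D2:**
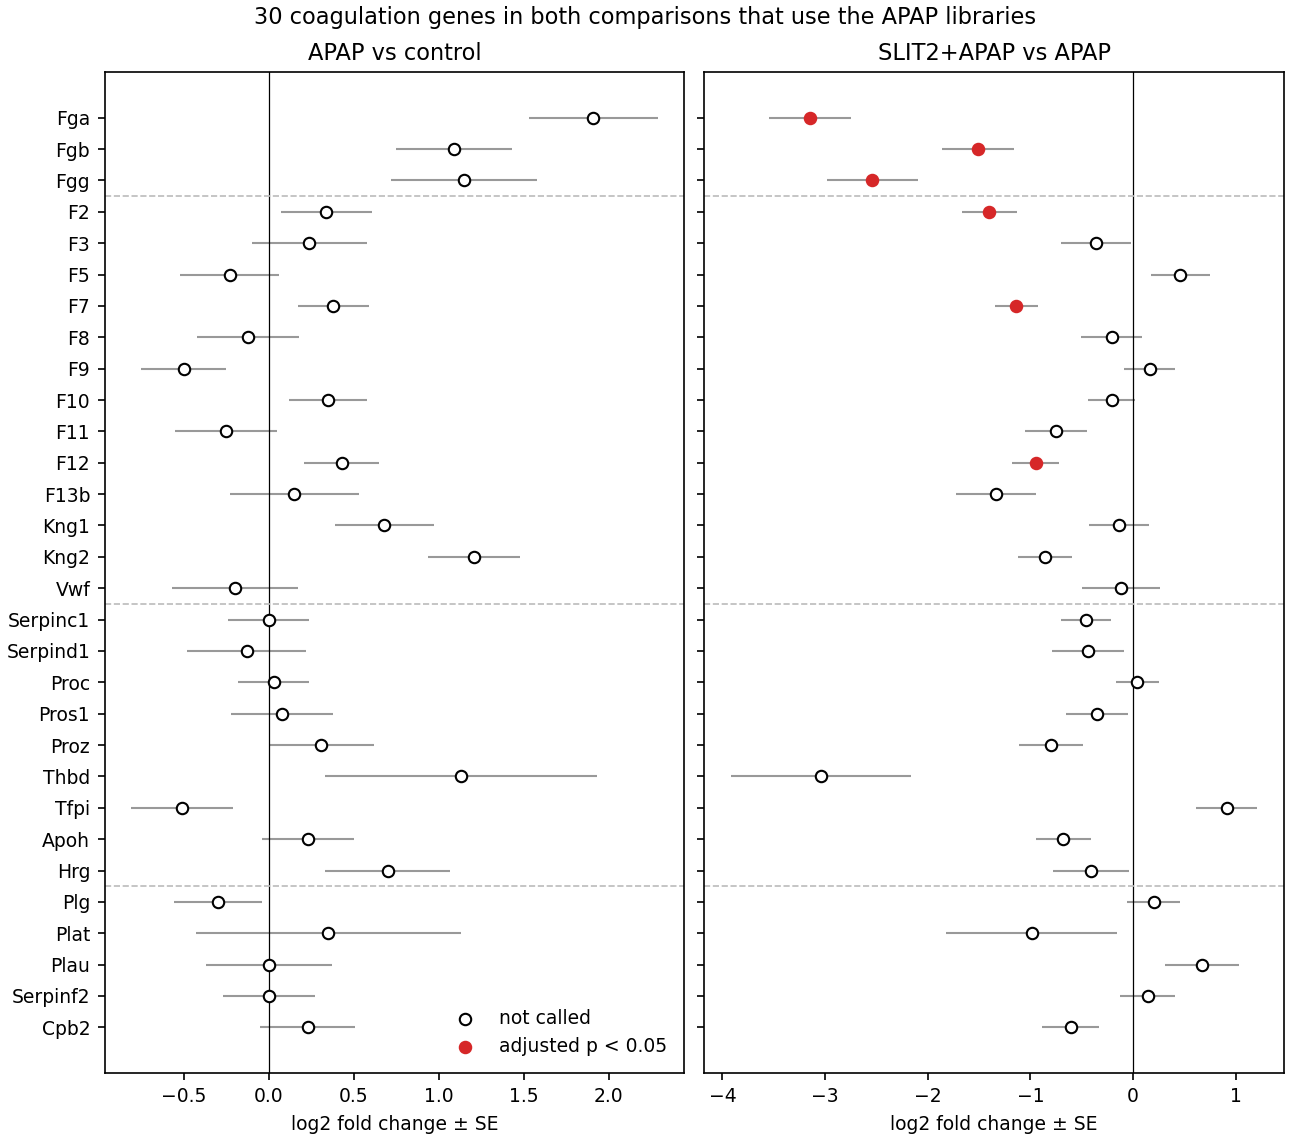
Log2 fold change with its standard error for the 30 genes, ordered by role, in APAP against control (left) and SLIT2+APAP against APAP (right), with filled points for edgeR adjusted p under 0.05. The right panel holds 6 filled points, the fibrinogen chains, F2, F7 and F12, all below 0, and the left panel none.

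SLIT2+APAP against APAP asks what SLIT2 did when the toxin was given too. All 3 fibrinogen chains fell, together with 3 proteases of the cascade: prothrombin, F7, which binds tissue factor, and F12, which starts the contact pathway. These 6 of 30 genes (20%) were called, all lower, against 13.9% of all genes called in either direction, 7.64% called lower and 6.29% higher. Between these groups the mitochondrial share went from 14.9% and 13.4% to 25.1% and 30.3%, and the hepatocyte marker sum from 96579.3 and 75220 CPM to 62239.8 and 61295.8 CPM. Their part in these falls was not tested. Of the 9 inhibitors edgeR called 0, with 4 at an unadjusted p under 0.05, while DESeq2 called Thbd lower and Tfpi higher. Of the 5 fibrinolysis genes 0 were called by either tool, with 0 at an unadjusted p under 0.05. Over all 16876 genes, 5591 had an unadjusted edgeR p under 0.05.

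Fga fell by 3.15 ± 0.40 on the log2 scale (8.89-fold lower, edgeR adjusted p = 0.006407), Fgg by 2.54 ± 0.44 (5.8-fold lower, edgeR adjusted p = 0.0139) and Fgb by 1.51 ± 0.35 (2.85-fold lower, edgeR adjusted p = 0.02928). Neither library with both agents reached either APAP library for any chain. The chains also changed in proportion to each other, a measure that does not depend on scaling between libraries and was chosen after the values were seen. The Fga to Fgb count ratio was 0.41 and 0.368 in control, 0.316 and 0.225 with SLIT2, 0.62 and 0.795 with APAP, and 0.228 and 0.212 with both. It was highest in the APAP libraries, and the libraries given both agents lay below control and overlapped those given SLIT2. The Fgg to Fgb ratio was 0.764 and 0.68 with APAP, inside the control values of 0.772 and 0.612, and 0.357 and 0.361 with both, below every other library.

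**Figure D3:**
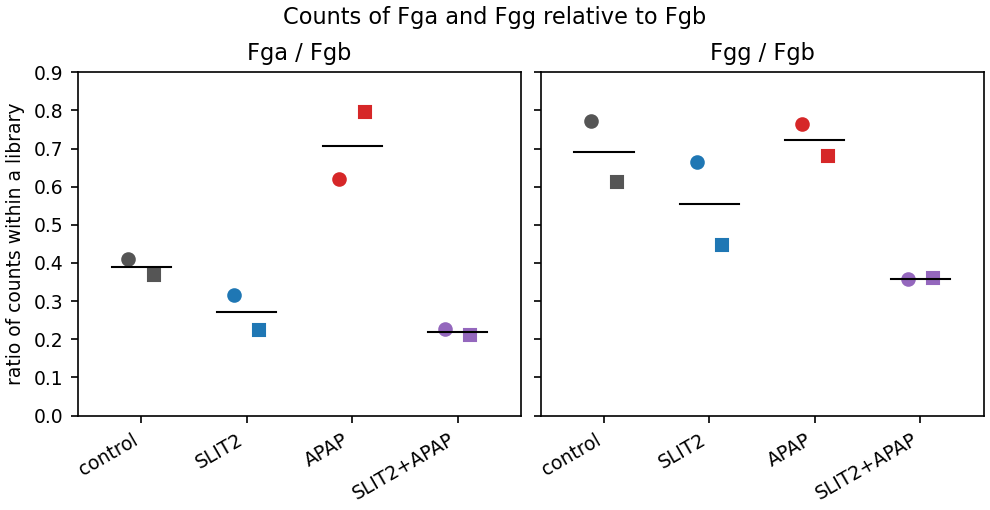
Ratios of fibrinogen chain counts within each library, by group, with circles and squares for the lower-numbered and the higher-numbered library and lines for means. The Fga to Fgb ratio averaged 0.707 with APAP and 0.22 with both agents.

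Prothrombin, F2, measured 941.8 and 994.0 CPM in control, 67.4 and 53.6 CPM with SLIT2, 1190.0 and 1267.1 CPM with APAP, and 546.3 and 386.2 CPM with both. The groups did not overlap, and the order from the top was APAP, control, both agents, SLIT2. From APAP to both agents F2 fell by 1.40 ± 0.27 on the log2 scale (2.64-fold lower, edgeR adjusted p = 0.01787). F7 measured 56.0 and 52.8 CPM in control, 22.6 and 29.3 CPM with SLIT2, 68.0 and 73.1 CPM with APAP, and 34.6 and 29.5 CPM with both. The latter were below control and nearly met the higher SLIT2 library. F7 fell by 1.14 ± 0.21 (edgeR adjusted p = 0.01581). F12 measured 268.0 and 299.1 CPM in control, 110.8 and 115.8 CPM with SLIT2, 415.0 and 351.2 CPM with APAP, and 221.0 and 176.9 CPM with both. It kept the same order of groups as F2, and fell by 0.95 ± 0.23 (edgeR adjusted p = 0.03263).

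F7, F10 and Proz are neighbours on mouse chromosome 8, yet had different values. F10, which encodes the protease that cuts prothrombin, had a log2 fold change of -0.21 ± 0.23 (edgeR adjusted p = 0.5507), and Proz, protein Z, the cofactor of an inhibitor of activated factor X, one of -0.80 ± 0.31 (edgeR adjusted p = 0.1157). F9 was at 112.8 ± 3.73 CPM with APAP and 126.2 ± 20.4 CPM with both (log2 fold change 0.16 ± 0.25), and F5, the cofactor of factor X, at 227.0 ± 85.6 and 312.7 ± 46.3 CPM. Plasminogen averaged 1830.8 ± 208.5 CPM with APAP and 2103.0 ± 280.2 CPM with both, and antiplasmin, the plasmin inhibitor encoded by Serpinf2, 714.2 ± 223.1 and 787.0 ± 34.2 CPM. Protein C (Proc) stood at 479.9 ± 12.7 and 493.8 ± 23.2 CPM, a log2 fold change of 0.04 ± 0.21. Thbd, F13b, Kng2 and Tfpi came next after the called genes, with log2 fold changes of -3.04 ± 0.88, -1.34 ± 0.39, -0.86 ± 0.26 and 0.91 ± 0.30 and edgeR adjusted p of 0.05666, 0.05728, 0.06578 and 0.08083. The size of the Thbd value rests mainly on APAP 3, at 6.71 CPM. APAP 4 was at 0.981 CPM and the libraries given both agents at 0.4 and 0.522 CPM.

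The median log2 fold change was -0.45 over the 30 genes and -0.06 over all genes. Both libraries with both agents lay below both APAP libraries for 15 of the 30 genes and above for 2, where 29.4% and 28.8% of all genes did so. The calls rest on both SLIT2+APAP libraries, since leaving out either lost most of them, and most calls over all genes. With 1 library of any group left out, the log2 fold change of Fga stayed between -3.57 and -2.83 and that of Fgb between -1.86 and -1.23. A fit of only the 4 libraries compared called 0 of the 30 genes, and 0.00594% of all genes. In that fit 10 of the 30 had an unadjusted edgeR p under 0.05, as did 4067 of 16838 genes. The calls of Fgb and F12 were also lost without either control library or without APAP 3. Scaling by library totals left 4 calls (Fga, Fgg, F2 and F7), moved the median of all genes from -0.06 to 0.12 and the share of higher genes among all calls from 45.1% to 61%. DESeq2 called 10 (9 lower and 1 higher), and 22.3% of all genes.

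SLIT2 against control asks what SLIT2 did without the toxin. Most clotting genes made by hepatocytes fell, procoagulant and anticoagulant alike, and urokinase was the only one of the 30 called higher. Of the 30 genes 19 were called (63.3%, against 54.9% of all genes), 18 lower (27.6% of all genes) and 1 higher (27.3%). The median log2 fold change was -1.49 over the 30 genes and 0 over all genes. Both SLIT2 libraries lay below both of control for 24 of the 30 genes and above for 4, where 41.4% and 41.2% of all genes did so. The hepatocyte markers and the mitochondrial share given above moved with this comparison, and their part in it was not tested. Albumin (Alb) held most of the hepatocyte marker sum, at 8810 and 4215.8 CPM with SLIT2 against 30267.5 and 48447 CPM in control. Hnf4a, another marker, was at 257 and 176 CPM against 266.2 and 274.5 CPM. The Fgb to Alb count ratio overlapped control (0.0523 and 0.0941 against 0.139 and 0.0695). Those of Fga, Fgg and F2 lay below control in both SLIT2 libraries. A fit without the 13 mitochondrially encoded genes called 21, among them all 19, and 54.9% of all genes. It does not test the part of the shift in the other genes.

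The largest falls were in prothrombin and in genes outside the clotting cascade proper. F2 fell by 4.00 ± 0.30 on the log2 scale (16.0-fold lower, edgeR adjusted p = 0.0001002). Cpb2, whose product trims fibrin so that plasmin binds less, measured 235.2 and 221.0 CPM in control and 16.0 and 13.9 CPM with SLIT2, and fell by 3.93 ± 0.32 (edgeR adjusted p = 0.0001027). Apoh went from 1522.2 ± 83.3 to 101.8 ± 9.5 CPM and fell by 3.90 ± 0.30 (edgeR adjusted p = 0.0001027). The log2 fold changes of the fibrinogen chains were -3.66 ± 0.41 for Fga, -3.46 ± 0.46 for Fgg and -3.14 ± 0.37 for Fgb.

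Among inhibitors, 6 of 9 were called lower. Heparin cofactor II (Serpind1) went from 302.1 ± 29.7 to 48.3 ± 21.1 CPM and antithrombin from 1471.7 ± 101.6 to 281.9 ± 12.3 CPM. Protein S (Pros1), the cofactor of protein C, went from 32.8 ± 3.13 to 9.29 ± 0.241 CPM, and histidine-rich glycoprotein (Hrg) from 487.9 ± 14.8 to 113.4 ± 54.6 CPM. Protein C itself was not called, at 471.3 ± 34.2 and 323.1 ± 2.94 CPM (log2 fold change -0.54 ± 0.21, edgeR adjusted p = 0.06053). The Proc to Serpinc1 count ratio was accordingly 1.1 and 1.19 in the SLIT2 libraries and between 0.319 and 0.493 in the other 6.

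Within the cascade some factors passed the test and others did not. F9 averaged 52.5 ± 15.0 CPM with SLIT2 and fell by 1.61 ± 0.26 from control (edgeR adjusted p = 0.001272), while F10 was at 302.0 ± 25.3 and 233.6 ± 30.6 CPM (-0.37 ± 0.23, edgeR adjusted p = 0.2037). F5, F8, F3 and Kng2 were not called either. F11, a contact-pathway protease, measured 53.8 and 53.0 CPM in control and 64.1 and 110.2 CPM with SLIT2, above control in both but with an edgeR adjusted p of 0.07823. F12, its activator, fell by 1.32 ± 0.23. The F11 to F12 ratio was 0.578 and 0.952 with SLIT2 and 0.087 to 0.201 elsewhere. This ratio, like those of Proc to Serpinc1 above and Plg to Serpinf2 below, was not planned before the values were seen. Vwf was at 1.65 ± 0.209 CPM in control and 3.14 ± 0.649 CPM with SLIT2 (log2 fold change 0.93 ± 0.37, edgeR adjusted p = 0.06324), where the endothelial markers summed to 85.7 and 69.2 CPM against 88.7 and 95.3 CPM in control. Of these, Stab2 was at 24.5 and 20 CPM against 9.46 and 11.7 CPM, and Tie1 at 8.46 and 6.92 CPM against 2.87 and 2.94 CPM. Most went the other way: Pecam1, Cdh5, Kdr, Clec4g, Lyve1, Tek, Eng and Emcn were below control in both SLIT2 libraries, and Egfl7 overlapped it. Platelets also carry Vwf, and the 8 platelet and megakaryocyte markers summed to 9.29 and 8.31 CPM with SLIT2 against 3.71 and 5.68 CPM in control. Itga2b alone held 7.55 and 6.57 CPM of that with SLIT2 and 2 and 2.6 CPM in control. Pf4 was lower, at 0.295 and 0.217 CPM against 0.405 and 0.851 CPM, and the other platelet markers overlapped control. The part of these in the Vwf values was not tested.

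In fibrinolysis the plasmin precursor and an activator moved in opposite directions. Plg went from 2253.0 ± 13.3 to 385.9 ± 58.5 CPM, a log2 fold change of -2.55 ± 0.28 (edgeR adjusted p = 0.0002487). Plau was at 0.584 and 0.631 CPM in control and 3.38 and 3.89 CPM with SLIT2, without overlap with any other group, and rose by 2.58 ± 0.36 (5.96-fold, edgeR adjusted p = 0.0007102). Antiplasmin fell by 1.34 ± 0.28, and the Plg to Serpinf2 ratio was 1.43 and 1.31 with SLIT2 against 2.27 to 3.2 elsewhere. Of the 19 calls, 18 were kept under every alternative that tested them, and F7 was lost only where genes under 10 CPM were left out.

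**Figure D4:**
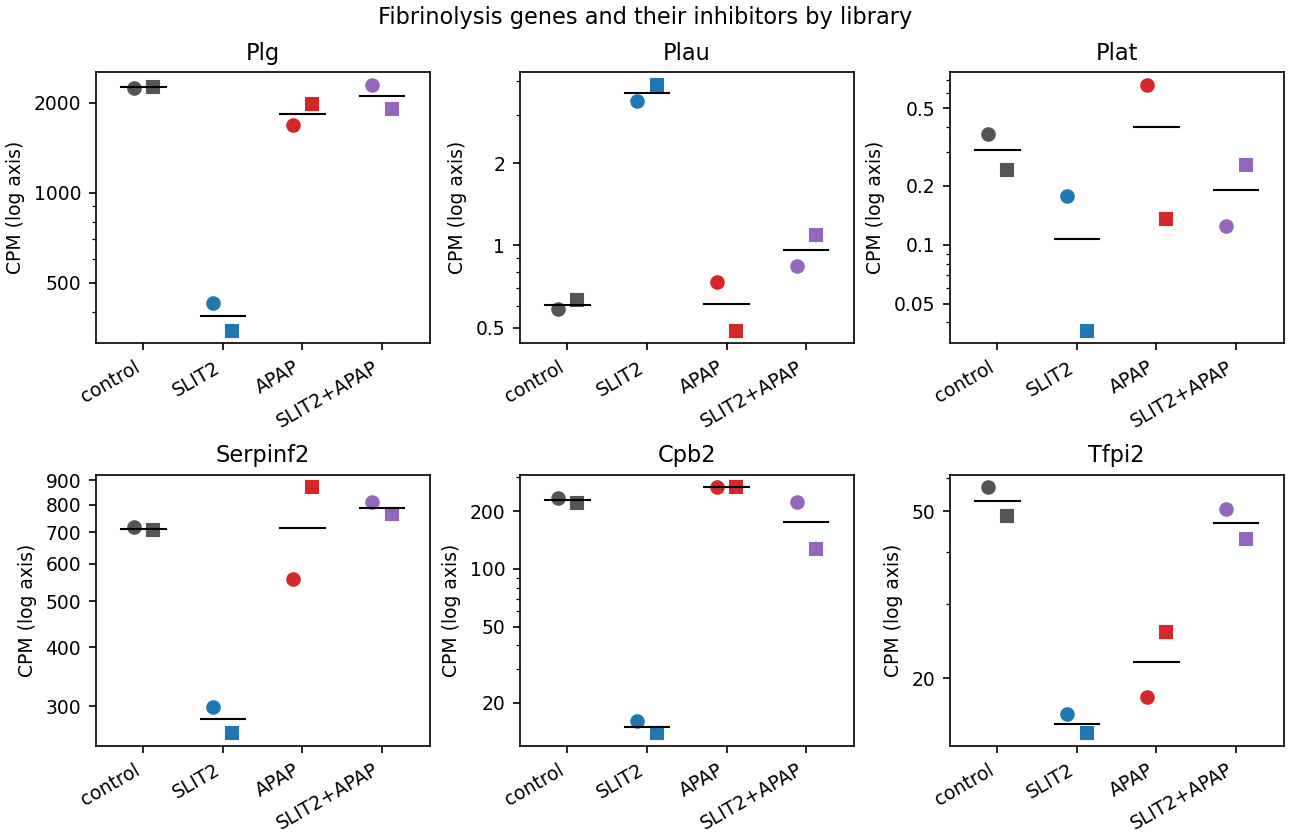
CPM (log axis) of Plg, Plau, Plat, Serpinf2, Cpb2 and Tfpi2 in each library by group, with circles and squares for the lower-numbered and the higher-numbered library and lines for means. Plau is highest in the SLIT2 libraries (3.38 and 3.89 CPM), where Plg, Serpinf2 and Cpb2 are lowest.

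SLIT2+APAP against control shares its libraries with the comparisons above. No gene of the 30 was called by edgeR (2.16% of all genes were, 0.717% higher and 1.45% lower). An unadjusted edgeR p under 0.05 was found for 6 of the 30, and for 3445 of all 16876 genes. DESeq2 called 6, all lower (Fga, Fgg, F2, F7, F11 and F13b), where it called 9.71% of all genes. F2 had the smallest p, with a log2 fold change of -1.05 ± 0.27 (edgeR adjusted p = 0.0798), while Fga was at -1.24 ± 0.38, Fgg at -1.38 ± 0.43 and Fgb at -0.42 ± 0.34. F11 was at 53.4 ± 0.534 CPM in control and 26.6 ± 1.79 CPM with both agents, the lowest of the groups. Kng1 (1189.0 ± 200.4 and 1722.4 ± 343.6 CPM) was above control in both libraries, and Plg (2253.0 ± 13.3 and 2103.0 ± 280.2 CPM) overlapped it. Both libraries with both agents lay below both of control for 15 of the 30 genes and above for 6, where 32.3% and 35.2% of all genes did so. A fit of only the 4 libraries compared called 9 of the 30 genes (24.2% of all genes) and a fit with the replicate number as a block called 7 (14.7% of all genes), all lower. Without either APAP library 5 were called (F2, F7, F11, F13b and Thbd), and 15.2% and 14.8% of all genes without APAP 3 and APAP 4. Scaling by library totals called 0 and moved the median of all genes from 0.04 to 0.34.

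**Figure D5:**
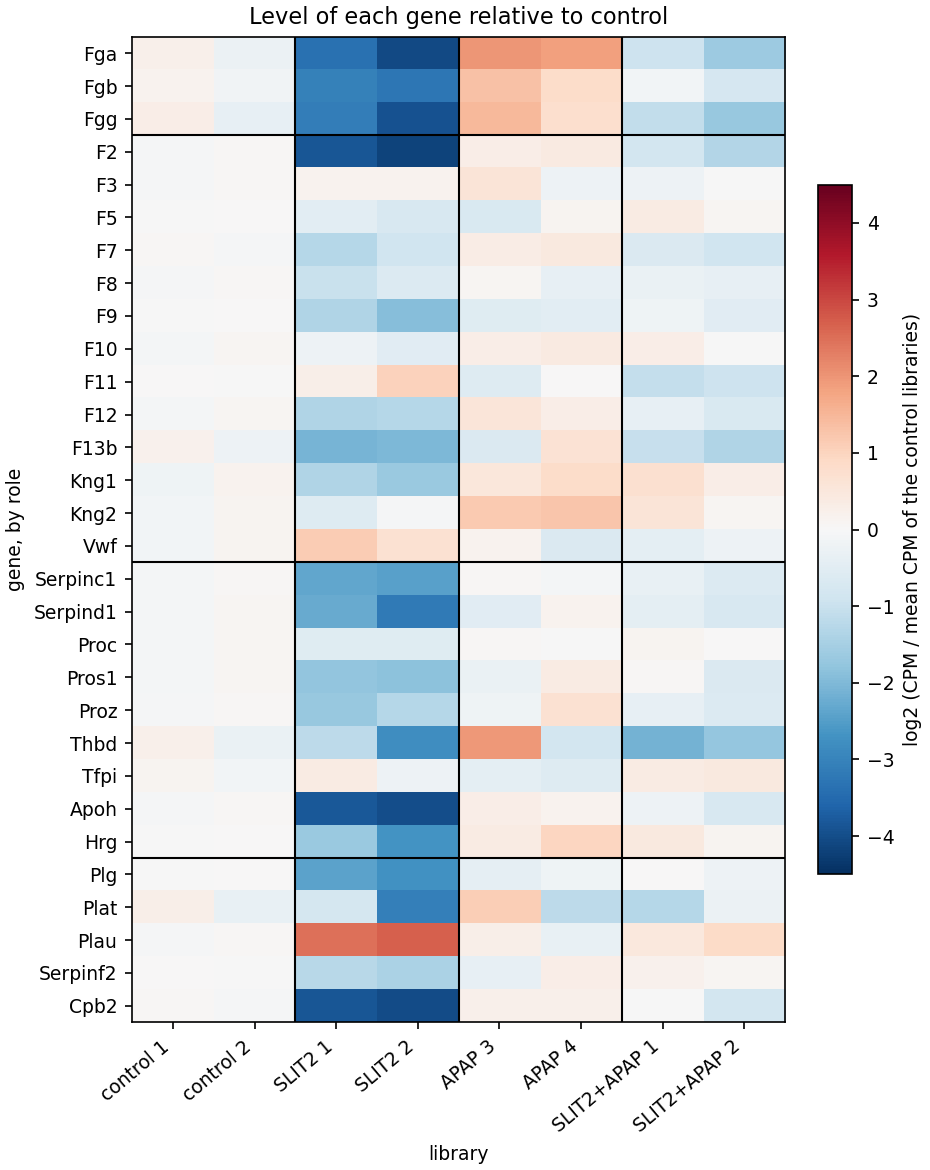
Log2 CPM of each of the 30 genes in each library relative to the mean of the control libraries, on a colour scale from -4.5 to 4.5, ordered by role. The fibrinogen chains, F2, Apoh, Plg and Cpb2 are lowest in the SLIT2 columns, where Plau, F11 and Vwf are highest.

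The interaction compares the effect of SLIT2 with APAP to its effect without. A positive value means that the log2 fold change with SLIT2 was higher when APAP was given. That can be a smaller fall or, as for Plg (0.2 in SLIT2+APAP against APAP), no fall. Of the 30 genes 14 were called (46.7%, against 28.8% of all genes). Of these calls 12 were higher and 2 lower, where 15.5% and 13.3% of all genes were. Cpb2 (3.32 ± 0.41, edgeR adjusted p = 0.003589), Apoh (3.22 ± 0.39, edgeR adjusted p = 0.003589), Plg (2.75 ± 0.38, edgeR adjusted p = 0.004387) and F2 (2.60 ± 0.38, edgeR adjusted p = 0.004979) were called under all 16 alternatives. The remaining calls depended on single libraries, and all of them were lost without SLIT2+APAP 1, as were most calls over all genes. With 1 library of any group left out, the value of Fgb stayed between 1.28 and 1.92. That of Serpinc1 stayed between 1.78 and 2.06, and that of Plau between -2.18 and -1.58. For Fga (0.51 ± 0.52, edgeR adjusted p = 0.489) and Fgg (0.92 ± 0.59, edgeR adjusted p = 0.2654) the difference between the effects did not pass the test, and for Fgb it did (1.63 ± 0.48, edgeR adjusted p = 0.0389). F7 (-0.07 ± 0.30) and F12 (0.38 ± 0.32) had values near 0.

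Other genes of the pathway were described from 3 lists, 33 of whose 37 genes were tested. With APAP alone 1 was called (3.03%, against 0.788% of all genes). With both agents against APAP, 7 of the 33 were called, 1 higher and 6 lower, a share of 21.2% against 13.9% of all genes. Tfpi2, a Kunitz-type protease inhibitor, was the higher one, at 18.0 and 25.8 CPM with APAP and 50.7 and 42.8 CPM with both, against 57.1 and 48.6 CPM in control (log2 fold change 1.09 ± 0.24, edgeR adjusted p = 0.02513). Serpine2, a thrombin inhibitor also called protease nexin, went from 4.22 ± 0.0243 to 1.53 ± 0.225 CPM (edgeR adjusted p = 0.01998), and was the only pathway gene called with both agents against control (-2.85 ± 0.30, edgeR adjusted p = 0.02185). Among receptors and cofactors, Asgr2, a subunit of the asialoglycoprotein receptor (-1.21 ± 0.23), Anxa2, a plasminogen-binding annexin (-1.40 ± 0.33), and Thbs1, thrombospondin (-1.81 ± 0.47), were lower. Another call was Serpina5, the protein C inhibitor, which averaged 0.336 ± 0.283 CPM with APAP. It is named here after its values were seen. The call of Asgr2 was lost without either SLIT2+APAP library, and those of Tfpi2, Serpine2, Anxa2, Thbs1 and Serpina5 without either of these or either control library. Thbs1 and Serpina5 were also lost without either SLIT2 library, and Serpina5 without APAP 3. The call of Serpine2 against control was lost without control 1 or without either library of SLIT2 or of SLIT2+APAP.

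With SLIT2 against control 22 of the 33 were called (66.7%, against 54.9% of all genes), 4 higher and 18 lower, where 27.3% and 27.6% of all genes were. In the vitamin K cycle and secretion list 5 of 6 fell, with the smallest p for Mcfd2, a cargo receptor subunit for factors V and VIII, from 162.8 ± 6.87 to 20.6 ± 1.17 CPM. Vkorc1l1, a vitamin K epoxide reductase, went from 24.1 ± 0.336 to 6.93 ± 0.87 CPM, and Nqo1, a quinone reductase, from 5.24 ± 1.54 to 1.14 ± 0.257 CPM. Serpine2 (-4.12 ± 0.33), the C1 inhibitor Serping1 (-2.37 ± 0.26) and the protein Z-dependent inhibitor Serpina10 (-2.34 ± 0.32) had the smallest p among other inhibitors and activators, and Asgr1, S100a10 and Asgr2 among receptors (-2.67 ± 0.28, -3.31 ± 0.38 and -1.71 ± 0.23). In the interaction 15 of the 33 were called (45.5%, against 28.8% of all genes), 11 higher and 4 lower, where 15.5% and 13.3% of all genes were. The genes with the smallest p in each list were Mcfd2 (2.45 ± 0.37), Nqo1 (2.31 ± 0.48) and Vkorc1l1 (1.31 ± 0.29) in the vitamin K list, Tfpi2 (2.85 ± 0.34), Serpine2 (2.66 ± 0.43) and the fibrinogen-like Fgl1 (4.67 ± 0.93) among inhibitors and activators, and Asgr1 (2.23 ± 0.38), S100a10 (2.68 ± 0.50) and the urokinase receptor Plaur (-4.31 ± 1.13) among receptors.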

How the data were processed

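Liver RNA of 8 libraries in 4 groups was measured by RNA-seq (MGIEasy directional kit). The deposited table holds the authors' raw counts per Ensembl gene as whole numbers, not normalized, and STAR 2.5.4 is listed in the submitters' processing notes beside Cufflinks, Cuffdiff 2.2.1 and mm10. How reads were counted (annotation, strand, multi-mapped reads) is not given in the sources used here. Without the strand, exons shared with genes on the other strand (Fgg, F5, Serpinc1, Apoh, Plg) make those counts uncertain. Of 93 values of at least 1000000, 72 end in 0 and appear rounded. GENCODE M21 symbols (GRCm38) matched 22329 identifiers (97.1%).

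Counts were fitted in R 4.3.3 with edgeR 4.0.16 (filterByExpr, TMM, robust quasi-likelihood, legacy = FALSE, 1 mean per group, all 8 libraries), with Benjamini-Hochberg adjustment over 16876 genes and calls under 0.05. The residual degrees of freedom were 4 and the common dispersion 0.112. SE is the log2 fold change divided by the square root of F. CPM used TMM-scaled library sizes, and per-kb levels the summed exon length.

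The genes and lists were chosen with earlier results of these data known. Values per library are given for fibrinogen chains and genes called in either APAP comparison, and from each pathway list at most 3 called genes per comparison by smallest p are named, except 1 gene that is not reported here. Vkorc1 and the hepatocyte marker Tf have no matching row and are not analysed here. Alternatives were DESeq2 1.42.0 and its size factors, library totals, no mitochondrially encoded genes, no filter or 10 CPM, the legacy fit, fewer libraries, GC offsets (16554 genes with GC content), a replicate block and each library left out. The labels do not say that replicate numbers pair samples, so numbers were not taken to pair them. Same-numbered libraries did not deviate together (r between -0.07 and 0.07 over 16876 genes), which cannot exclude pairing. Within groups, libraries differed by far more than sampling noise (chi-square per degree of freedom 131 to 702). Figures used matplotlib 3.10.9.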

Additional observations from a re-analysis of the deposited data

Results flagged for a closer look

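The effect of SLIT2 with APAP differed from its effect without APAP for 14 of the 30 clotting genes (46.7%, against 28.8% of all genes). The measure was the edgeR interaction term at an adjusted p under 0.05. Of these calls 12 were higher and 2 lower, where 15.5% and 13.3% of all genes were. Among fibrinogen chains and procoagulant genes the log2 difference between the effects was 1.63 for Fgb, 2.6 for F2, 1.77 for F9, 1.35 for Kng1 and -1.46 for F11. Among inhibitors it was 1.93 for Serpinc1, 2.21 for Serpind1, 1.47 for Pros1, 3.22 for Apoh and 1.69 for Hrg. In fibrinolysis it was 2.75 for Plg, 1.48 for Serpinf2, 3.32 for Cpb2 and -1.9 for Plau. F11 was above control with SLIT2 alone and below APAP with both agents in both libraries of each, and Plau was raised most with SLIT2 alone. The SLIT2 libraries on which these differences rest have the mitochondrial shares of 60.2% and 69% given above, and the part of that in the differences was not tested.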

How the results depend on the processing

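No called value changed sign under any alternative. Of 6 calls in SLIT2+APAP against APAP, 0 were kept under every alternative (82 of 108 values were kept), of 19 in SLIT2 against control 18 were (340 of 341), and of 14 in the interaction 4 were (164 of 223). Causes were not tested beyond what the settings themselves change. For the 30 clotting genes, DESeq2 called 3 in APAP against control, 10 in SLIT2+APAP against APAP and 6 in SLIT2+APAP against control. Over all genes it called 11.6%, 22.3% and 9.71% in the same order. Fits of only the libraries compared called 0 in SLIT2+APAP against APAP (0.00594% of all genes) and 9 in SLIT2+APAP against control (24.2%). No count filter gave 1 (Fga) in APAP against control (0.891% of all genes). At least 10 CPM gave 9 in the interaction (44.7% of all genes), where fewer genes were tested. For the 33 pathway genes, at least 10 CPM gave 2, 3, 12 and 0 calls in APAP against control, SLIT2+APAP against APAP, SLIT2 against control and SLIT2+APAP against control. The shares of all genes in that order were 1.66%, 23.9%, 62.8% and 6.88%. DESeq2 gave 6 in APAP against control and 2 in SLIT2+APAP against control. Fits without the SLIT2 libraries gave 0 in both APAP against control (0% of all genes) and SLIT2+APAP against control (0.0178%). Fits of only the libraries compared gave 0 in APAP against control (0% of all genes), 0 in SLIT2+APAP against APAP and 10 in SLIT2+APAP against control.

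The replicate block could be fitted only for groups numbered 1 and 2. It gave 24 clotting and 24 pathway genes in SLIT2 against control (66.1% of all genes) and 7 and 7 in SLIT2+APAP against control (14.7%). The labels do not say that the numbers pair samples. With 2 libraries per group, the correlations of same-numbered libraries (r = 0.07, -0.07 and -0.01) cannot decide it.

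Leaving out 1 library at a time gave 0 to 4 clotting genes in APAP against control, 0 to 8 in SLIT2+APAP against APAP, 19 to 24 in SLIT2 against control, 0 to 5 in SLIT2+APAP against control and 4 to 18 in the interaction. For pathway genes the ranges were 0 to 11, 1 to 13, 15 to 24, 0 to 7 and 6 to 20 in the same order. The share of all genes called also changed widely between these fits in each comparison. The ranges therefore do not set the listed genes apart. Where 1 library was left in a group, its spread was taken from the others. In APAP against control, scaling by library totals moved the share of higher genes among all calls from 42.1% to 61.3% and the median of all genes from 0.05 to 0.16, and in SLIT2+APAP against control the share moved from 33.2% to 68.5%. Low counts limit precision: the SE of SLIT2 against control was 0.98 for Plat and 0.88 for Thbd.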
